A study of Mus musculus with 16 samples.

Results

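Thymic T-cell lymphomas that arose in mice with an Lck-Dlx5 transgene were compared, across all genes, with thymic tumors of Lck-MyrAkt2 mice of founder line 72. The comparison used 6 of the 16 arrays of the series, 3 per group, chosen by the genotype and founder line in the labels. The 3 Lck-Dlx5 lymphomas came from 9-month-old mice of founder lines 63, 47 and 86 (replicates 1, 2 and 3, with 1 mouse each), and carried a Myc-tagged Dlx5 cDNA under the Lck promoter. The 3 line 72 tumors came from 5-month-old mice of 1 founder line and carried a myristylated, constitutively active Akt2 under the same promoter. Neither group was an unaltered control, and transgene, age and founder line cannot be told apart in this comparison. Sex was not matched between the groups either, as described below. The other arrays were 3 Lck-MyrAkt2 tumors of founder line 420 (5 months), 4 tumors with both transgenes (double transgenic, 2 months) and thymic T cells of 3 wild-type (WT) mice (9 months). They served to estimate the spread and to place the levels.

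The Lck promoter is active in developing thymocytes, the precursors of T cells. These pass from a stage without CD4 and CD8 (double negative), at which Notch signaling and the pre-T cell receptor drive them on, to a stage with both co-receptors (double positive), at which the T cell receptor alpha chain is rearranged by the RAG proteins. Dlx5 is a homeobox transcription factor of bone and brain development that normal thymocytes do not use. Notch receptors are cleaved upon ligand binding and release a fragment that activates target genes together with Rbpj, and they are frequent drivers of T-cell acute leukemia. Akt2 is a kinase downstream of phosphoinositide 3-kinase that promotes survival and growth.

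Levels are log2 expression values of the whole-transcript array, as deposited, and a difference of 1 is a 2-fold difference. Array medians of the 6 arrays ran from 6.36 to 6.46, and levels below them were not separated from background, so that folds against such levels are uncertain in size. The labelled T-cell identity was borne by Cd3e, a chain of the T cell receptor complex, at 12.05, 11.82 and 11.94 in Lck-Dlx5 lymphomas, against 11.72, 11.53 and 11.85 in line 72 tumors. Across the 12932 genes tested, arrays correlated at 0.948 to 0.964 within the Lck-Dlx5 group and at 0.957 to 0.977 within line 72, and at 0.873 to 0.902 between the groups (Pearson's r across genes, which are not independent). Sex-linked transcripts were not alike in the groups. Xist, the X inactivation transcript, was at 12.42, 5.57 and 5.73 in Lck-Dlx5 replicates 1, 2 and 3, against 12.03, 11.98 and 11.78 in line 72 tumors, and the Y-linked Uty was high only in Lck-Dlx5 replicate 2 (8.69). Lck-Dlx5 replicate 3 had neither transcript at a high level (Uty at 4.57), and its sex could not be read from the array. In bulk tumor RNA, fewer cells of a type and less RNA per cell cannot be told apart.

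Lck-Dlx5 lymphomas differed from line 72 tumors in 2548 of 12932 genes (19.7%), with 897 genes higher (6.94%) and 1651 lower (12.8%) at limma's adjusted p under 0.05. Of these, 277 rose and 578 fell by at least 2-fold (2.14% and 4.47% of the genes tested). The 2 groups of 3 arrays did not overlap in 4718 genes (36.5%), of which 2454 were among the 2548 called. The median difference over all genes was -0.04. Counts per gene list below are to be read against these shares of 6.94% higher and 12.8% lower. Leaving out line 72 replicate 3 lowered the count to 1660, with 507 higher, and setting Lck-Dlx5 replicate 1, the lymphoma with Xist, alone against the 3 line 72 tumors gave 1093 calls. Without genes of the X and Y chromosomes 2510 calls were made.

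**Figure D1:**
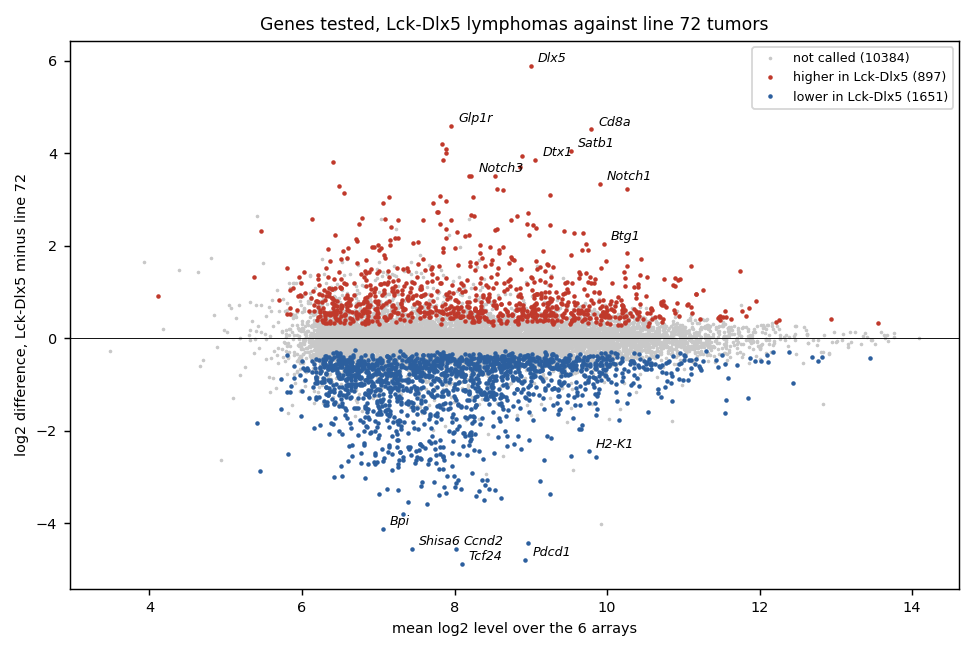
Log2 difference (Lck-Dlx5 minus line 72, vertical axis) against the mean log2 level over the 6 arrays (horizontal axis), with 1 point per gene tested. Red points are the 897 genes called higher and blue points the 1651 called lower in Lck-Dlx5 lymphomas; Dlx5 lies at 5.89 and Tcf24 at -4.88.

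Dlx5 itself checked the labels. It was at 11.45, 12.08 and 12.30 in Lck-Dlx5 lymphomas, against 6.05, 6.05 and 6.07 in line 72 tumors. All 3 line 72 tumors lay below the array median and near WT (5.70 to 5.82), and the difference was 5.89 ± 0.26 (SE, adjusted p = 9.72e-09). MyrAkt2 tumors of line 420, in contrast, had Dlx5 at 9.87 to 10.69. Of the 4 Dlx family genes tested, Dlx5 alone was called.

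The Notch receptor genes moved in opposite directions. Notch1 was at 11.42, 11.61 and 11.68 in Lck-Dlx5 lymphomas, against 8.21, 8.55 and 7.97 in line 72 tumors. Every lymphoma lay above every tumor, by 3.33 ± 0.73 (adjusted p = 0.00624), and WT samples lay between them at 10.36 to 10.51. Notch3 was at 10.09, 9.87 and 9.96 in Lck-Dlx5 lymphomas, against 6.56, 6.37 and 6.46 in line 72 tumors, a difference of 3.51 ± 0.69 (adjusted p = 0.00338). The spread within either group was far smaller than this gap, and WT lay between them here too, at 8.24 to 8.47. Notch2 was lower in all 3 Lck-Dlx5 lymphomas (8.44 ± 0.20 against 9.37 ± 0.07 in line 72, SD, n = 3 each), with a difference of -0.93 (adjusted p = 0.00231), and Notch4 was lower by a smaller amount (6.99 ± 0.05 against 7.46 ± 0.27, difference -0.47, adjusted p = 0.0178, and 0.066 at most with 1 array left out). In line 420 tumors Notch1 ran from 8.15 to 11.90 and Notch3 from 6.17 to 9.51, so that the 3 tumors of that line covered both levels. With Lck-Dlx5 replicate 1 alone against line 72 the differences were 3.18 for Notch1 (adjusted p = 0.0973) and 3.63 for Notch3 (adjusted p = 0.0544).

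**Figure D2:**
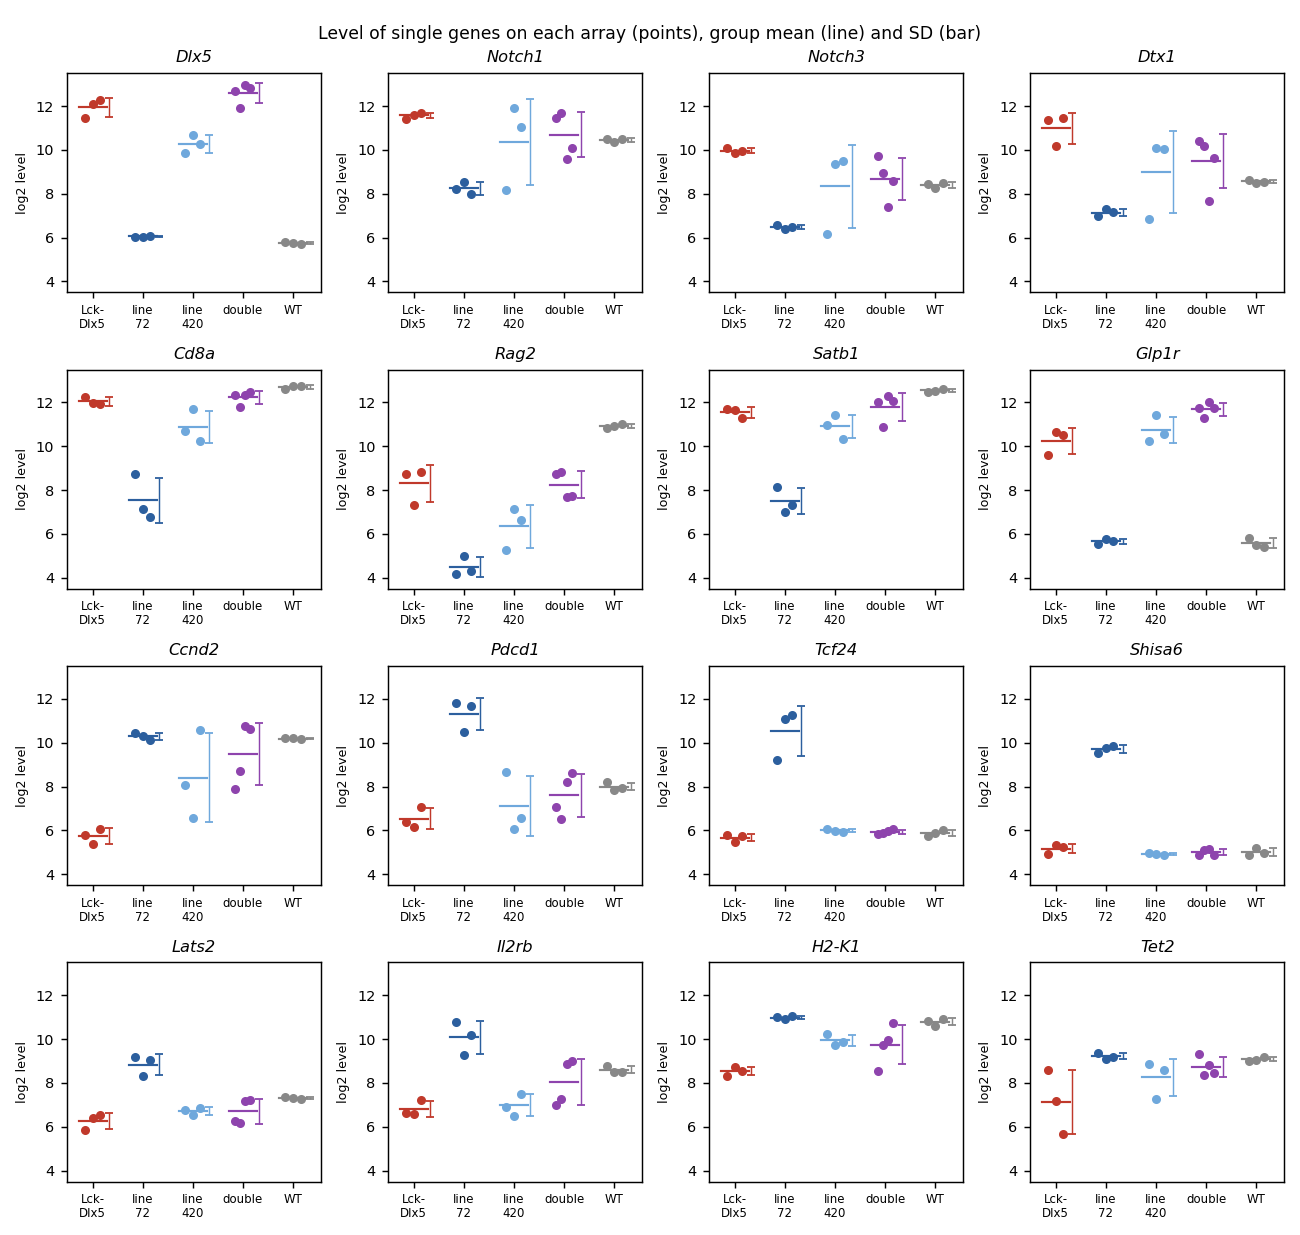
Log2 level (vertical axis) of 16 genes on each array (points) in the 5 groups, with the group mean (line) and SD (bar); n = 3 arrays per group and 4 for the double transgenic group. Dlx5, Notch1, Notch3, Dtx1, Cd8a, Rag2, Satb1 and Glp1r are higher in every Lck-Dlx5 lymphoma than in any line 72 tumor, and the other 8 genes are lower.

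The starts of the Notch1 and Notch3 genes are shown because the study reported that Dlx5 acts directly on these receptor genes. They stand with those of Ptcra and Rag2, a Notch target and a recombination gene that differed in the same direction. Each window runs from 250 bases before to 50 bases after the start (RefSeq, GRCm38.p6; Notch1 at chr2:26503773-26504072, minus strand; Notch3 at chr17:32166841-32167140, minus strand; Ptcra at chr17:46763663-46763962, minus strand; Rag2 at chr2:101624462-101624761, plus strand). Capitals mark TAATT, the core motif of Dlx proteins, or TGGGAA, the core motif of Rbpj, each searched on both strands.
Notch1: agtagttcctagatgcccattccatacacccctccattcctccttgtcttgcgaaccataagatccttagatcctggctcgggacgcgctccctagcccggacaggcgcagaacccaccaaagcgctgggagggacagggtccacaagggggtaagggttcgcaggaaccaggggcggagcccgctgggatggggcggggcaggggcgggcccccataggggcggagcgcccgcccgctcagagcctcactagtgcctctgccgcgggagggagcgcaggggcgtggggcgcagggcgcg
Notch3: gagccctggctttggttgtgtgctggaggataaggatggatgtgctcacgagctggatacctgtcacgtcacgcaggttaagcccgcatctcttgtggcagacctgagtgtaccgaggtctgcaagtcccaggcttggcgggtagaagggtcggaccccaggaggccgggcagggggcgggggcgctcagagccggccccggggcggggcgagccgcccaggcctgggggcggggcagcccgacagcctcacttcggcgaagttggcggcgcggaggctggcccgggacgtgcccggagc
Ptcra: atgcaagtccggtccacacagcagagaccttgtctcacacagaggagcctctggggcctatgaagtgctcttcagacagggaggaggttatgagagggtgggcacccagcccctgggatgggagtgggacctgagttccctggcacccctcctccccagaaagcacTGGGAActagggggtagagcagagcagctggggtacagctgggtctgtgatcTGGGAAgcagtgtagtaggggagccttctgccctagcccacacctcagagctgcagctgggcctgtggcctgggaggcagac
Rag2: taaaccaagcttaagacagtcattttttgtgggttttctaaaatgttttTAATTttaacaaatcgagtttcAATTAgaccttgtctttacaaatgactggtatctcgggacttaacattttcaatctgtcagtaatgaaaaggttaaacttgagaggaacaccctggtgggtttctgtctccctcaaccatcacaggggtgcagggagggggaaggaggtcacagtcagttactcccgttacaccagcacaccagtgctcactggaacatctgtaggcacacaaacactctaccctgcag
The Notch1 and Notch3 windows held neither set of letters. The Ptcra window held TGGGAA 2 times and the Rag2 window TAATT 2 times, once on each strand. TAATT was present in 27.0% of all 32851 promoter windows and TGGGAA in 25.6%. Among genes tested that had a window, TAATT was present for 21.5% of genes called higher, 18.3% of genes called lower and 19.2% of all, and TGGGAA for 26.0%, 26.4% and 26.4%. These matches describe the windows only, and sites farther from the start were not searched. The paper reported Dlx5 binding at enhancer elements at the end of the Notch1 gene and in an intron of Notch3. It also reported activation of reporter genes through these elements. They lie outside the windows shown, so that the windows do not bear on those sites.

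Some genes that Notch activates in thymocytes were higher in Lck-Dlx5 lymphomas than in line 72 tumors, but as a list they were not above WT. Of 14 Notch target genes tested, 4 rose and none fell in limma (7 and 0 at an unadjusted p under 0.05), with a median difference of 1.05, against 6.94% of all genes higher and a median of -0.04. Averaged over the 14 genes, WT arrays were at 8.59 to 8.69, within the range of Lck-Dlx5 lymphomas (8.21 to 9.06). Line 72 tumors were below both, at 7.48 to 7.68. Dtx1, a Notch-induced ubiquitin ligase, was at 11.36, 10.16 and 11.45 in Lck-Dlx5 lymphomas, against 6.97, 7.28 and 7.15 in line 72 tumors. The groups were separated by 3.85 ± 0.77 (adjusted p = 0.00385), although Lck-Dlx5 replicate 2 lay below the other two. Ptcra, the invariant chain of the pre-T cell receptor, was at 9.69, 8.62 and 9.41 in Lck-Dlx5 lymphomas, against 6.49, 6.76 and 6.79 in line 72 tumors (difference 2.56, adjusted p = 0.0233, up to 0.0782 with 1 array left out). Heyl, a transcriptional repressor, and Bcl11b, a T-lineage factor, rose by 1.12 and 1.03 (adjusted p = 0.000965 and 0.000662). For Bcl11b the lymphomas (11.63 to 12.01) were below WT (12.04 to 12.24), whereas for Dtx1 they were above WT (8.503 to 8.625). Hes1, the best known of these targets, was at 8.51, 6.95 and 8.88 in Lck-Dlx5 lymphomas, against 7.20, 6.69 and 7.25 in line 72 tumors. Replicate 2 lay within the range of line 72, and the difference of 1.07 ± 0.65 was not called (adjusted p = 0.271).

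Of the 23 tested genes for Notch receptors, ligands and processing, 3 rose and 4 fell (median -0.08). Besides Notch1 and Notch3, Rbpj, the DNA-binding partner of the Notch fragment, rose by 0.37 (adjusted p = 0.0188). Besides Notch2 and Notch4, Psen2, a catalytic subunit of gamma-secretase, and Lfng, a glycosyltransferase that tunes Notch to its ligands, fell by 1.04 and 1.26 (adjusted p = 0.00039 and 0.0113).

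Genes of the double-positive stage were mostly higher in Lck-Dlx5 lymphomas. Of 12 tested, 10 rose and none fell, with a median difference of 3.36. Cd8a, a chain of the CD8 co-receptor, was at 12.26, 11.96 and 11.93 in Lck-Dlx5 lymphomas, against 8.72, 7.12 and 6.78 in line 72 tumors (4.51 ± 0.42, adjusted p = 1.01e-05), and Cd8b1, the other chain, rose by 3.22. The lymphomas were close to WT (12.60 to 12.77 for Cd8a), whereas line 72 tumors were far below it. Line 420 tumors, which also carry an Akt2 transgene, were at 10.25 to 11.69 for Cd8a, above every line 72 tumor. By flow cytometry of cultured lymphoma lines, the paper found CD4 and CD8 protein together on cells from Lck-MyrAkt2 mice. The text of the paper does not give the founder line of those cells, so they cannot be set against line 72 tumors. Satb1, a chromatin organizer of thymocytes, was at 11.70, 11.68 and 11.28 in Lck-Dlx5 lymphomas, against 8.16, 7.02 and 7.32 in line 72 tumors (4.05 ± 0.36, adjusted p = 6.27e-06). Rag2, which with Rag1 cuts antigen receptor genes, was at 8.76, 7.34 and 8.82 in Lck-Dlx5 lymphomas, against 4.16, 5.01 and 4.33 in line 72 tumors. All 3 line 72 values were below the array median, the difference was 3.80 ± 0.48 (adjusted p = 0.000161), and the lymphomas in turn were below WT (10.84 to 11.02). Dntt, the polymerase that adds bases at receptor gene junctions, was at 10.43, 8.95 and 10.46 in Lck-Dlx5 lymphomas, against 7.68, 5.23 and 6.41 in line 72 tumors (3.51 ± 0.57, adjusted p = 0.00111). Arpp21 and Aqp11, markers of this stage, rose by 4.19 and 3.94. In line 420 tumors they were at 9.31 to 10.33 and 10.79 to 11.68, so that low levels of both were not shared by the 2 MyrAkt2 lines. Themis, a signaling adaptor of positive selection, Ets2 and Cd24a rose by 1.56, 1.16 and 0.79. Cd4 differed by 0.50 and was not called, with overlapping groups. With any 1 array left out 8 to 10 of the 12 were called higher.

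The list of the double-negative stage did not move as a whole: 2 of its 12 tested genes rose, Notch1 and Ptcra, and 2 fell. The genes that fell were Il7r, the interleukin 7 receptor, at 7.24, 7.61 and 6.84 in Lck-Dlx5 lymphomas against 9.66, 8.74 and 9.53 in line 72 tumors (-2.08, adjusted p = 0.0104), and Lyl1, a helix-loop-helix factor and the 1 gene called of 6 T-cell leukemia oncogenes tested, with a difference of -1.17 (adjusted p = 0.0103). Of 18 genes of the T cell receptor complex and its proximal signaling, 1 rose and none fell: Lat, the membrane adaptor of the receptor, by 0.65 (adjusted p = 0.00304). Of 20 T-lineage transcription factors 2 rose and 3 fell. The 3 were Id3, an inhibitor of E proteins (-1.80), Egr2, induced by receptor signaling (-1.27), and Runx3, a factor of the CD8 lineage (-1.18), with adjusted p = 0.0178, 0.0121 and 0.0286. Runx3 overlapped between the groups, since Lck-Dlx5 replicate 3 (7.76) lay above line 72 replicate 2 (7.52). The calls of Ptcra, Lyl1, Id3 and Runx3 each ended when at least 1 array was left out (adjusted p up to 0.0782, 0.0501, 0.0659 and 0.118).

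Glp1r, Bex1, Mboat2, Arsi and Gfra1 were among the 15 highest called genes and outside the lists above. Glp1r, the receptor of glucagon-like peptide 1, was at 9.58, 10.65 and 10.52 in Lck-Dlx5 lymphomas, against 5.55, 5.75 and 5.68 in line 72 tumors (4.59 ± 0.30, adjusted p = 6.01e-07). WT was as low as line 72 (5.43 to 5.83), whereas line 420 and double transgenic tumors, which also had high Dlx5, were at 10.24 to 11.43 and 11.28 to 12.01. Whether Glp1r or Bex1 depends on Dlx5 was not tested. Bex1, an X-linked adaptor gene of the nervous system, was at 9.71, 10.57 and 9.52 in Lck-Dlx5 lymphomas, against 5.40, 6.29 and 5.82 in line 72 tumors (4.10 ± 0.35, adjusted p = 4.58e-06), and it was likewise low in WT (4.67 to 5.32) and high in line 420 (11.27 to 12.02). Mboat2, a lysophospholipid acyltransferase, rose by 3.84 (9.77 ± 0.43 against 5.93 ± 0.11 in line 72), Arsi, an arylsulfatase, by 4.01 and Gfra1, a co-receptor of glial cell line-derived neurotrophic factor, by 3.70. Arsi in line 420 ran from 7.31 to 10.06, so that it varied among tumors there. From the list of cytokine receptors, Il12rb2, the signaling chain of the interleukin 12 receptor, was at 9.82, 9.73 and 9.75 in Lck-Dlx5 lymphomas, against 7.12, 6.78 and 6.24 in line 72 tumors (3.05 ± 0.25, adjusted p = 2.56e-06).

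Some of the genes lowest in Lck-Dlx5 lymphomas were high in line 72 tumors and low in WT, and others were high in WT too. Tcf24, a helix-loop-helix factor, was at 5.77, 5.47 and 5.72 in Lck-Dlx5 lymphomas, against 9.23, 11.08 and 11.28 in line 72 tumors (-4.88 ± 0.36, adjusted p = 1.32e-06). Shisa6, an auxiliary subunit of AMPA-type glutamate receptors, was at 4.94, 5.31 and 5.25 in Lck-Dlx5 lymphomas, against 9.53, 9.77 and 9.85 in line 72 tumors (-4.55 ± 0.13, adjusted p = 7.06e-11). Both genes were below the array median in every Lck-Dlx5 lymphoma, and the line 420, double transgenic and WT arrays had no level above 6.07 for Tcf24 or above 5.21 for Shisa6. A gene was tested if above the array median on at least 3 arrays, and Tcf24 and Shisa6 passed through the line 72 arrays alone. Their gaps and p-values therefore depend on this filter and are a description. Nrbp2, a pseudokinase (-3.58), Lix1 (-3.55) and Nfib, a transcription factor of the nuclear factor I family (-3.50), also had WT levels of 6.75 or less. Nfib varied within line 72, at 10.75, 8.32 and 11.34.

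Ccnd2, the cyclin D2 gene, was at 5.78, 5.38 and 6.08 in Lck-Dlx5 lymphomas, against 10.44, 10.33 and 10.13 in line 72 tumors (-4.55 ± 0.83, adjusted p = 0.00211). The lymphomas were below the array median, and WT (10.18 to 10.20) was level with line 72. Ccnd1, cyclin D1, was at 9.36, 9.84 and 9.68 in Lck-Dlx5 lymphomas, against 9.64, 7.61 and 9.36 in line 72 tumors, and its groups overlapped (0.76 ± 0.52, adjusted p = 0.33). Car2, a carbonic anhydrase, Ephx1, an epoxide hydrolase, S100a10, the partner of annexin A2, and Slc25a24, a mitochondrial carrier, fell by 3.80, 3.45, 3.36 and 3.35. Stk39, a kinase that regulates ion transport, fell by 3.41 and Nrgn, the calmodulin-binding neurogranin, by 4.44. Nrgn was near-uniform in both groups (6.63 to 6.87 in Lck-Dlx5 lymphomas and 11.14 to 11.25 in line 72), while the double transgenic tumors ran from 6.73 to 10.68.

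Pdcd1, Btla, Il2rb and Il18r1, surface proteins of activated or mature T cells, were lower in Lck-Dlx5 lymphomas, while most members of their lists were not called lower. Of 13 inhibitory receptors and costimulatory genes tested, 6 fell and none rose (median -0.64, against 12.8% of all genes lower). Pdcd1, the inhibitory receptor PD-1, was at 6.38, 6.15 and 7.08 in Lck-Dlx5 lymphomas, against 11.82, 10.49 and 11.67 in line 72 tumors. The groups lay far apart (-4.79 ± 0.63, adjusted p = 0.000218), and line 72 was also above WT (7.86 to 8.19). Btla and Tigit, inhibitory receptors, fell by 2.73 and 2.71 (adjusted p = 0.00154 and 0.016), and Cd200, a ligand of an inhibitory receptor, by 1.55 (adjusted p = 0.0264). Tigit varied in line 72 (8.91, 6.42 and 9.33). Without line 72 replicate 1 the count of 6 was 2. Of 22 cytokine receptors 8 fell and 2 rose (median -0.53). Il2rb, the beta chain of the interleukin 2 receptor, was at 6.65, 6.59 and 7.24 in Lck-Dlx5 lymphomas, against 10.77, 9.29 and 10.18 in line 72 tumors (-3.25 ± 0.50, adjusted p = 0.000692), and Il18r1, an interleukin 18 receptor chain, fell by 2.67. Nt5e, the ecto-nucleotidase CD73, fell by 3.39, with 9.58, 8.72 and 10.16 in line 72. Zbtb16, the transcription factor of innate-like T cells, was at 6.29, 6.63 and 6.75 in Lck-Dlx5 lymphomas, against 8.76, 9.43 and 8.98 in line 72 tumors (-2.50, adjusted p = 0.000608). The calls of Tigit and Cd200 each ended when at least 1 array was left out (adjusted p up to 0.0745 and 0.0993).

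Of 16 genes of mature T cells and egress, 3 fell (18.8%, against 12.8% of all genes) and none rose (median -0.67). They were Il2rb, Il7r and Ms4a6b, a membrane protein of mature T cells (-1.97, adjusted p = 0.0241, up to 0.0842 with 1 array left out). Cd69, an early activation marker, was at 7.51, 5.45 and 9.13 in Lck-Dlx5 lymphomas and at 9.76, 10.52 and 9.44 in line 72, a difference of -2.54 that was not called (adjusted p = 0.0698). Of 18 integrin and adhesion genes 6 fell and 2 rose. Itga4 and Itgb7, which form the integrin alpha4beta7, fell by 3.06 and 2.34 (adjusted p = 0.00362 and 0.00478), and Itgb3 by 1.71. Cd47, the ligand of the macrophage receptor Sirpa, rose by 1.43 and Itga6, a laminin receptor chain, by 1.22. Egr3, an immediate early gene of T cell receptor signaling, was at 6.22, 6.37 and 6.56 in Lck-Dlx5 lymphomas, against 9.35, 9.11 and 9.16 in line 72 tumors. This gap of -2.82 ± 0.16 (adjusted p = 1.53e-07) left no overlap, and WT (7.05 to 7.37) lay nearer to the lymphomas.

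Of 14 antigen presentation genes tested, 3 fell (21.4%, against 12.8% of all genes) and none rose, and all 14 had negative differences (median -0.46). H2-K1, a classical MHC class I gene, was at 8.34, 8.72 and 8.55 in Lck-Dlx5 lymphomas, against 10.99, 10.91 and 11.05 in line 72 tumors (-2.45 ± 0.36, adjusted p = 0.000554). WT (10.61 to 10.91) was close to line 72. H2-DMa, a peptide-loading chaperone of MHC class II, fell by 3.09 (adjusted p = 3.8e-05) and Nlrc5, the activator of class I genes, by 1.44 (adjusted p = 0.00122). Of 19 interferon response genes 5 fell (26.3%) and 1 rose (5.26%), with a median of -0.65. Rsad2 (-1.51), Irf9 (-1.34), Isg20 (-1.33) and Stat2 (-0.65) were among those that fell. The exception was Usp18, which restrains interferon signaling, at 9.56, 9.51 and 9.52 in Lck-Dlx5 lymphomas, against 7.57, 7.61 and 7.71 in line 72 tumors (1.90 ± 0.43, adjusted p = 0.00786).

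**Figure D3:**
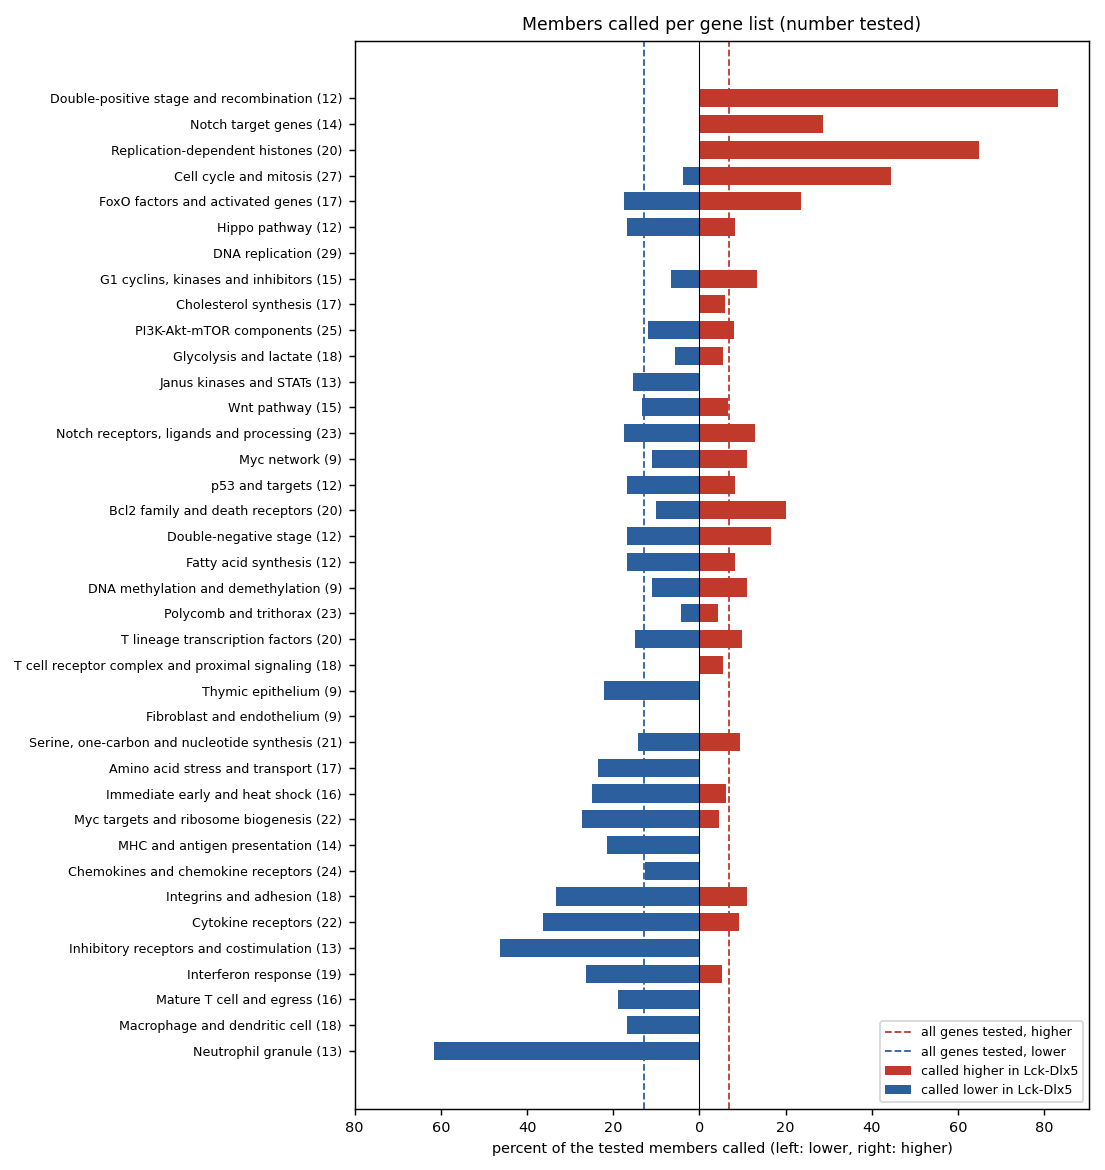
Percent of the tested members of each gene list (rows, number tested in parentheses) called higher (red, right of 0) or lower (blue, left of 0) in Lck-Dlx5 lymphomas against line 72, ordered by the median difference, for lists with at least 9 tested members. Dashed lines mark all genes tested, 6.94% higher and 12.8% lower; the double-positive list reaches 83.3% higher and the neutrophil granule list 61.5% lower.

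Of 20 replication-dependent histone genes tested, 13 rose and none fell (median 0.53). H2bc21 was at 7.92, 8.34 and 7.60 in Lck-Dlx5 lymphomas, against 6.01, 6.48 and 6.18 in line 72 tumors (1.73, adjusted p = 3.34e-05), and the linker histones H1f2 and H1f3 rose by 1.33 and 1.27. Features of near-identical histone genes may share signal. Of 27 genes of the cell cycle and mitosis 12 rose and 1 fell (median 0.30). E2f8, a repressor of the E2F family, Cenpf, a kinetochore protein, and Birc5, the mitotic regulator survivin, rose by 0.76, 0.69 and 0.67, and Ccne1, cyclin E1, fell by 0.86. Without Lck-Dlx5 replicate 2 there were 3 calls higher in place of 12, without any other single array 4 to 10, with arrays shifted to a common median 7, and with Lck-Dlx5 replicate 1 alone none. Of 29 DNA replication genes limma called none in either direction (median 0.08, with 1 gene lower at an unadjusted p under 0.05), Rfc2 and Rfc3, subunits of the clamp loader, having the largest differences at -0.30 and 0.40. Cdkn1b, the inhibitor p27, was at 9.69, 9.86 and 9.94 in Lck-Dlx5 lymphomas, against 8.64, 8.22 and 8.16 in line 72 tumors (1.49 ± 0.17, adjusted p = 6.38e-05). The calls of Cenpf, Birc5 and Ccne1 each ended when at least 1 array was left out (adjusted p up to 0.0592, 0.121 and 0.193).

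Myc was lower in Lck-Dlx5 lymphomas (10.47, 10.80 and 10.88) than in line 72 tumors (11.66, 10.94 and 11.87), by -0.77 ± 0.25 (adjusted p = 0.0404), and both groups were above WT (9.54 to 9.73). The call ended when any of 5 single arrays was left out. Of 22 Myc target and ribosome biogenesis genes 6 fell and 1 rose (median -0.39). Nop2, a ribosomal RNA methyltransferase, Ddx21, a nucleolar helicase, and Gnl3, nucleostemin, fell by 0.66, 0.61 and 0.55, and Tfrc, the transferrin receptor, rose by 0.61. With 1 array left out, 1 to 7 were called lower, and the calls of Nop2, Ddx21, Gnl3 and Tfrc each ended at least once (adjusted p up to 0.114, 0.0508, 0.0777 and 0.169). Of 17 genes of amino acid stress and transport 4 fell, with Slc7a1, the cationic amino acid transporter, at 8.65, 8.88 and 9.24 in Lck-Dlx5 lymphomas, against 10.27, 9.79 and 10.55 in line 72 tumors (-1.28, adjusted p = 0.00119), and Slc1a5, a glutamine carrier, lower by 0.75 on the log2 scale. Mthfd1l, a mitochondrial folate enzyme, had a difference of -1.08 and Elovl6, a fatty acid elongase, of -1.30 (adjusted p = 0.00211 and 0.00262).

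Genes of Akt signaling did not shift together. Of 25 components of the PI3K-Akt-mTOR pathway 2 rose and 3 fell (median 0.05). Pik3cd, the catalytic subunit p110-delta, was at 7.26, 6.41 and 7.80 in Lck-Dlx5 lymphomas, against 8.93, 8.64 and 8.84 in line 72 tumors (-1.65, adjusted p = 0.0113). Insr, the insulin receptor, and Pik3ca, the subunit p110-alpha, rose by 0.70 and 0.48. Akt2 had a difference of -0.42 (9.54 ± 0.09 against 9.96 ± 0.07 in line 72, adjusted p = 0.0426), small for a gene carried as a transgene in line 72. The Akt2 call ended under quantile normalization, with no filter on dim features and without any 1 of the 6 arrays (adjusted p up to 0.119 with 1 array left out). Akt2 was at 9.56 to 9.65 in line 420 tumors, which carry the same kind of transgene, and at 9.74 to 9.91 in WT. Whether the Akt2 feature reads the transgene was not tested. Irs2, the insulin receptor substrate, was at 7.94, 6.60 and 8.07 in Lck-Dlx5 lymphomas, against 6.84, 6.95 and 6.59 in line 72 tumors, and its difference of 0.74 ± 0.35 was not called (adjusted p = 0.152). Without Lck-Dlx5 replicate 2, the one low lymphoma, it was called (adjusted p = 0.0135). Of 17 FoxO factors and FoxO-activated genes, which Akt represses, 4 rose and 3 fell. Btg1, an antiproliferative factor, was at 10.90, 11.06 and 10.97 in Lck-Dlx5 lymphomas, against 9.05, 9.02 and 8.74 in line 72 tumors (2.04 ± 0.19, adjusted p = 1.04e-05). Cdkn1b, Bcl2l11 and Txnip were the others that rose, and Il7r, Gabarapl1 and Sesn1 fell.

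Of 20 Bcl2 family and death receptor genes 4 rose and 2 fell. Fas, a death receptor, was at 8.65, 8.79 and 7.87 in Lck-Dlx5 lymphomas, against 6.74, 7.30 and 6.14 in line 72 tumors (1.70 ± 0.45, adjusted p = 0.0168), and both groups were below WT (9.84 to 9.89). Bcl2l11, the pro-apoptotic Bim, and Bcl2l1, the anti-apoptotic Bcl-xL, rose by 1.27 and 0.94 (adjusted p = 0.0145 and 0.0191). Tnfrsf10b, the TRAIL receptor, fell by 1.57 (adjusted p = 0.00254). The calls of Fas, Bcl2l11 and Bcl2l1 each ended when at least 1 array was left out (adjusted p up to 0.0746, 0.0597 and 0.0762).

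Of 17 tested genes that the study names, 4 rose and 8 fell. The study named them with data that include these samples, so their count is a description. Lats2, a kinase of the Hippo pathway, was at 5.83, 6.38 and 6.54 in Lck-Dlx5 lymphomas, against 9.19, 8.30 and 9.03 in line 72 tumors (-2.59 ± 0.30, adjusted p = 7.05e-05). Of 12 Hippo pathway genes tested, 1 rose and 2 fell (8.33% and 16.7%, against 6.94% and 12.8% of all genes). Tet2, which oxidizes methylated cytosine, was at 8.60, 7.16 and 5.66 in Lck-Dlx5 lymphomas, against 9.39, 9.10 and 9.21 in line 72 tumors. Each lymphoma was below each tumor, with a wide spread among the lymphomas, and the call (-2.09 ± 0.55, adjusted p = 0.0178) ended without Lck-Dlx5 replicate 3 or line 72 replicate 1 and with Lck-Dlx5 replicate 1 alone (-0.63, adjusted p = 0.45). Tnik, a kinase of Wnt signaling, had a difference of -1.27 (8.04 ± 0.30 against 9.30 ± 0.27 in line 72, adjusted p = 0.0219), and this call ended without Lck-Dlx5 replicate 2 or 3 or line 72 replicate 1 or 3 (adjusted p up to 0.0746). Tnf and Xaf1 differed by -0.47 and -0.83 and were not called (adjusted p = 0.183 and 0.113).

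Of 24 chemokines and chemokine receptors 3 fell and none rose (median -0.48), and these 12.5% were near the 12.8% of all genes lower. Ccr8, a receptor of thymic and regulatory T cells, was at 5.42, 5.68 and 7.05 in Lck-Dlx5 lymphomas, against 7.63, 7.30 and 8.03 in line 72 tumors (-1.60 ± 0.31, adjusted p = 0.00332). Ccl6 and Ccl9, chemokines of myeloid cells, had differences of -1.38 and -1.22 (adjusted p = 0.0428 and 0.0168) and were highest in line 72 replicate 2. Of 13 Janus kinases and STATs 2 fell (15.4%), Stat6, which mediates interleukin 4 signaling, by 0.84 and Stat2 by 0.65. Of 16 immediate early and heat shock genes 4 fell and 1 rose. Besides Egr3, Ier2 and Hsph1, a co-chaperone, had differences of -0.80 and -1.12 (adjusted p = 0.0152 and 0.0486), and Dnajb1, a partner of Hsp70, rose by 0.71. Hsph1 overlapped between the groups. The calls of Ccl6, Ccl9, Ier2 and Hsph1 each ended when at least 1 array was left out (adjusted p up to 0.171, 0.0723, 0.0688 and 0.193).

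Few genes of the chromatin and metabolic lists were called. Of 23 polycomb and trithorax genes 1 rose and 1 fell, both of polycomb repressive complex 1. Phc1 was at 8.63, 8.92 and 8.69 in Lck-Dlx5 lymphomas, against 7.99, 7.59 and 7.89 in line 72 tumors (0.92 ± 0.14, adjusted p = 0.000519), and Ring1 had a difference of -0.57 (adjusted p = 0.0142). Of 9 genes of DNA methylation and demethylation Idh2, a mitochondrial isocitrate dehydrogenase, rose by 0.72 (adjusted p = 0.00103) and Tet2 fell. Of 18 glycolysis genes Pdk1, which restrains pyruvate oxidation, rose by 0.61 and Pfkp, a phosphofructokinase, fell by 0.93. Of 21 genes of serine, one-carbon and nucleotide synthesis 2 rose and 3 fell. Tyms, thymidylate synthase, rose by 0.68, while Shmt2, a mitochondrial serine hydroxymethyltransferase, and Psat1, of serine synthesis, had differences of -0.86 and -0.55. Of 17 cholesterol synthesis genes 1 rose, Srebf2, their transcriptional activator, by 0.91, and of 12 fatty acid synthesis genes Fads1, a desaturase, rose by 1.13 while Elovl6 and Fasn fell. Of 12 p53 pathway genes 1 rose and 2 fell (8.33% and 16.7%, against 6.94% and 12.8% of all genes). Perp, a target of p53 in epithelia, was at 5.82, 6.12 and 5.73 in Lck-Dlx5 lymphomas, against 6.75, 8.93 and 8.07 in line 72 tumors (-2.02 ± 0.42, adjusted p = 0.00436). Of 15 Wnt pathway genes Nkd1, a feedback inhibitor, rose by 1.15 (adjusted p = 0.0149) and Tcf7l1 and Tnik fell. Most of these calls were of under 2-fold. The calls of Ring1, Tet2, Pdk1, Pfkp, Tyms, Shmt2, Psat1, Srebf2, Fasn, Nkd1, Tcf7l1 and Tnik each ended when at least 1 of the 6 arrays was left out, with adjusted p up to 0.145 (Psat1).

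Most neutrophil granule genes were lower in Lck-Dlx5 lymphomas. Other lists of markers for cells that are not T cells had fewer genes called, although most macrophage genes also had negative differences. Of 13 neutrophil granule genes 8 fell and none rose (median -1.43). Summed over the 13 genes, their level was 9.46 to 10.55 in Lck-Dlx5 lymphomas and 10.80 to 12.37 in line 72 tumors (log2 of the summed linear values), and WT was at 11.01 to 11.49. S100a8, a calcium-binding protein of neutrophils, was at 5.20, 5.20 and 5.54 in Lck-Dlx5 lymphomas, against 7.49, 9.74 and 7.76 in line 72 tumors (-3.01, adjusted p = 0.00039), with line 72 replicate 2 the highest array. Ngp, another granule protein, and Retnlg, a resistin-like protein, had differences of -2.72 and -2.66 (adjusted p = 0.00102 and 0.00111). In Lck-Dlx5 lymphomas 10 of the 13 genes were below the array median on all 3 arrays, and in line 72 none was. A gene dim in the lymphomas was tested only if at least 3 other arrays were above the median. This contrast therefore depends in part on the filter. Bpi, a granule protein that kills bacteria, had another pattern. It was below the array median on every array outside line 72 and passed the filter through the line 72 arrays alone. Its gap and p-value therefore depend on the filter and are a description. At 5.05, 5.12 and 4.82 in Lck-Dlx5 lymphomas and 8.78, 8.94 and 9.63 in line 72 tumors (-4.12 ± 0.19, adjusted p = 9.72e-09), it was highest in line 72 replicate 3 and as low in WT (4.67 to 4.95) as in the lymphomas, whereas S100a8, Ngp and Retnlg were higher in WT than in the lymphomas.

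Of 18 macrophage and dendritic cell genes 3 fell and none rose (16.7% lower, against 12.8% of all genes, median -0.68). They were Mertk (-1.28), C1qa (-1.09) and Lyz2 (-1.06). At limma's unadjusted p under 0.05, 10 of the 18 were lower and none higher, and 17 had negative differences. Summed over the 18 genes, the level was 11.97 to 12.62 in Lck-Dlx5 lymphomas and 12.79 to 13.78 in line 72 tumors. Of 9 fibroblast and endothelial genes limma called none, with 2 lower at an unadjusted p under 0.05. Dcn, decorin, was at 7.92, 8.60 and 7.43 in Lck-Dlx5 lymphomas and at 8.78, 10.85 and 9.34 in line 72 (adjusted p = 0.0694). Of 6 NK and cytotoxic genes 1 fell, Gzmk, a granzyme, at 6.18, 5.81 and 6.38 in Lck-Dlx5 lymphomas and 9.58, 6.42 and 8.72 in line 72 (-2.11, adjusted p = 0.0137). Of 6 B cell genes limma called none, with 1 higher at an unadjusted p under 0.05, and summed levels were 8.65 to 8.88 in Lck-Dlx5 lymphomas and 8.63 to 8.87 in line 72 tumors. Of 4 gamma-delta T cell genes 2 fell, Zbtb16 and Maf, and of 3 adipocyte genes limma called none, with 1 lower at an unadjusted p under 0.05. Of 9 thymic epithelial genes 2 fell, Epcam and Prss16 (-1.18 and -1.13). Epor, the erythropoietin receptor and the 1 erythroid gene tested, had a difference of -0.41 (adjusted p = 0.0464). Erythroid features named with several genes are described further below. The part of other cells in the falls of antigen presentation, interferon, cytokine receptor and integrin genes was not tested. The calls of Lyz2, Gzmk, Maf and Epor each ended when at least 1 array was left out (adjusted p up to 0.0589, 0.0571, 0.19 and 0.134).

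**Figure D4:**
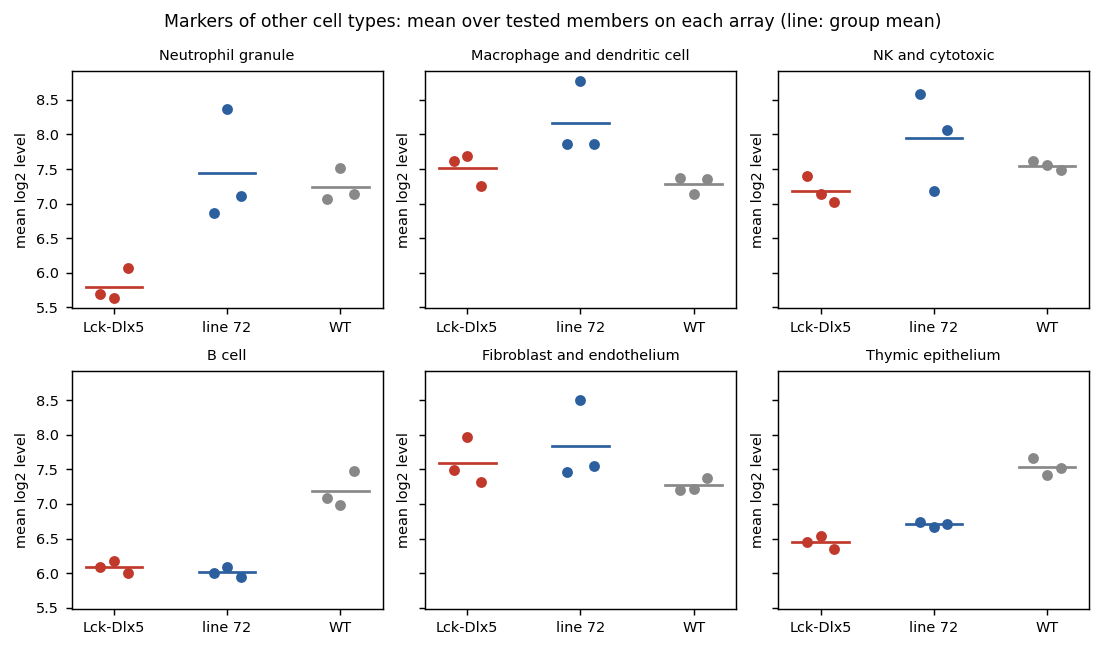
Mean log2 level of the tested members of 6 marker lists (panels) on each array (points) of Lck-Dlx5 lymphomas, line 72 tumors and WT samples, with group means as lines. Neutrophil levels are at 5.64 to 6.07 in Lck-Dlx5 lymphomas and 6.87 to 8.36 in line 72 tumors, whereas B cell levels are similar in these 2 groups.

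By chromosome, the median differences of chromosomes 10 and 14 were the farthest below those of the other autosomes. On each array the median difference from the line 72 mean was taken over the genes of a chromosome, minus that of the other autosomes. For the 643 genes of chromosome 10 it was -0.19, -0.20 and -0.18 in Lck-Dlx5 lymphomas, against -0.12, 0.09 and 0.02 in line 72 tumors. All 3 lymphomas were lower, but line 72 replicate 1 was nearer to them than to the other 2 tumors. On this chromosome 170 genes (26.4%) were called lower and 25 (3.89%) higher, against 12.8% and 6.94% of all genes. For the 454 genes of chromosome 14 it was -0.14, -0.13 and -0.16 in Lck-Dlx5 lymphomas, against 0.01, -0.01 and 0.01 in line 72 tumors, with 113 genes (24.9%) lower and 22 (4.85%) higher. With no filter on dim features the shift of chromosome 14 was -0.045 in place of -0.129, and with a filter at the 75th percentile -0.233; that of chromosome 10 was -0.131 with no filter in place of -0.205. Lats2 is among the genes of chromosome 14. Chromosome 15 had a shift of 0.17 in Lck-Dlx5 replicate 2 but of -0.05 and 0.00 in replicates 1 and 3. With 3 arrays against 3 the smallest two-sided exact permutation p is 0.10, which 10 of the 20 chromosomes reached, chromosomes 10 and 14 among them (adjusted p = 0.2), so that the test does not set these chromosomes apart. DNA copy number was not analysed here.

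**Figure D5:**
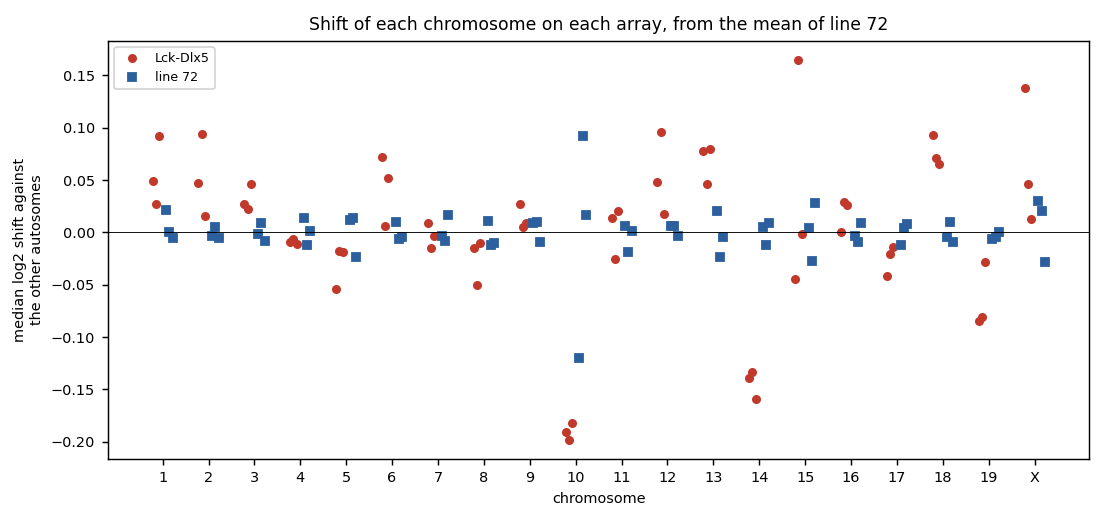
Median log2 shift of the genes of each chromosome against the other autosomes (vertical axis) on each of the 6 arrays, relative to the mean of line 72; red circles are Lck-Dlx5 lymphomas and blue squares line 72 tumors. Chromosome 14 separates all 3 lymphomas, at -0.13 to -0.16, from all 3 tumors, and chromosome 10 is at -0.18 to -0.20 in the lymphomas. Line 72 values lie around 0 by construction.

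Line 420 tumors carry the same kind of Akt2 transgene as line 72, and 107 of 12932 genes (0.827%) were called between Lck-Dlx5 lymphomas and line 420, whereas 1445 (11.2%) were called between line 420 and line 72. Arrays of Lck-Dlx5 correlated at 0.927 to 0.955 with those of line 420. On the second principal component, which held 25.2% of the variance, Lck-Dlx5 arrays were at -17.6 to -26.6 and line 72 arrays at 44.8 to 48.4. These comparisons share arrays and are not independent.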

How the data were processed

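The authors measured primary thymic tumors and WT thymic T cells on the Affymetrix Mouse Gene 2.0 ST platform and deposited log2 values per feature from Affymetrix Expression Console (version, summarization and normalization not given in the sources used here), which were used unchanged. Of 41345 features, 23521 carried the name of 1 gene, 1820 of several and 16004 of none. The brightest feature stood for each of 22180 genes, and the 12932 genes above the array median on at least 3 arrays were tested.

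In limma 3.58.1 (R 4.3.3), each of the 5 groups had its own mean and all 16 arrays shared the estimate of spread (eBayes). Benjamini-Hochberg adjustment ran over all genes tested, and every adjusted p of a gene is limma's. The p-values set a difference against the spread within groups, pooled over all 5 groups. Groups outside the comparison thus enter it. For Ccnd2 the SD was 0.35 in Lck-Dlx5 lymphomas, 0.16 in line 72 tumors and 2.02 in line 420 tumors. The text names the genes of the study, the 15 highest and 15 lowest called genes whose groups were apart (predicted genes, small RNAs, olfactory and vomeronasal receptors, receptor segments, and Xist or Y transcripts were passed over), and at most 4 called genes of a list by size of change, or its 2 with the largest differences where it had no call. Any other gene was picked after its values were seen. Members and lists were chosen with earlier results of these data known. In a simulation over 12932 genes, the fit found 84 of 100 genes set to a log2 difference of 1 and 93 of 100 set to 2, with 7 false calls. It drew independent normal noise with 1 spread per gene for all 16 arrays. Correlated genes and unequal spreads of the groups were not simulated, so these numbers are not error rates of the real calls. Alternatives changed normalization, filter, choice of feature, fit and arrays; the lymphoma with Xist alone was added after the data were seen. The number of arrays limits the precision. Lck, Tcf7, Appl2 and Ptk2 had no feature of their own and were not analysed here. RefSeq tables (GRCm38.p6) gave chromosomes for 12913 genes tested and the promoter windows. Figures were drawn with matplotlib 3.10.9.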

Additional observations from a re-analysis of the deposited data

Results flagged for a closer look

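Some signals lay on features outside the genes compared above, because the annotation names them with several genes or with none. A fit over every feature of the table called 138 features with several genes higher in Lck-Dlx5 lymphomas and 85 lower (1352 tested), and 272 with no gene name higher and 246 lower (8653 tested).

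The feature named for Rag1 and Iftap was at 10.78, 10.76 and 10.49 in Lck-Dlx5 lymphomas, against 5.02, 5.12 and 5.15 in line 72 tumors, a difference of 5.58 ± 0.80 (SE, limma, adjusted p = 0.000896). The features for Dlx1as with Dlx1 and for Dlx1as with Metap1d, were higher by 1.67 and 1.54 (adjusted p = 0.000101 and 0.000692). The feature for Jak3 and Insl3 was lower in Lck-Dlx5 lymphomas (7.73, 7.59 and 7.29) than in line 72 tumors (9.42, 9.24 and 9.35), by -1.80 (adjusted p = 0.000556). Which gene of each pair carried the signal cannot be told from these features.

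Erythroid genes differed as well. The feature for the beta-globin genes Hbb-b1, Hbb-b2 and Hbb-bs was at 6.87, 6.49 and 7.12 in Lck-Dlx5 lymphomas, against 11.29, 10.63 and 11.35 in line 72 tumors (-4.26 ± 0.48, adjusted p = 0.000138), and the feature for Alas2, the first heme synthesis enzyme of red cells, with Apex2 differed by -3.29 (adjusted p = 0.000143). The part of red-cell RNA in the falls of Car2 and Epor, genes that erythroid cells also express, was not tested. The feature for the NK receptors Klrb1a and Klrb1c differed by -3.34 (adjusted p = 1.65e-05), with all 3 Lck-Dlx5 lymphomas at 4.34 or below.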

How the results depend on the processing

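Against 2548 calls (897 higher, 1651 lower), a filter at the 75th percentile gave 1691 (1030 lower), the 6 arrays alone 1663 (556 higher), the 13 tumor arrays 593 higher, an adjusted p under 0.01 gave 1086 (329 and 757), and a log2 difference of at least 1 gave 855 (277 and 578). Leaving out 1 array gave 1660 to 2085 calls, 507 to 676 higher and 1128 to 1409 lower. The lymphoma with Xist alone, chosen after seeing the data, gave 1093 (329 and 764), of which 943 were among the 2548 in the same direction. The other alternatives stayed within 1.5 times. Of 134 called named genes, 66 kept the call in every alternative and 68 lost it in at least 1; of 15 not called, 5 were called in at least 1, and none of the 149 reversed. The chromosome 10 shift of -0.205 was -0.131 with no filter and -0.242 with the 75th percentile; that of chromosome 14, -0.129, was -0.045, -0.233 and, as a mean, -0.163. The cause of these changes was not tested. No paired analysis was possible because replicate numbers were given in accession order and pair no mice. Dim levels limit the size of folds.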
